A study of Drosophila melanogaster with 5 samples.

Results

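The 10 genes described here prepare the Drosophila egg for activation and for the handover from maternal to zygotic control: png, plu, gnu, cort, smg, me31B, tral, pgc, gcl and zld. They were chosen by name, with earlier results of these data known. Counts of members set beside all tested genes are therefore a description, not a test of the list. All 10 were found among the 14094 genes of the deposited table. The material was ovary RNA of adult Drosophila melanogaster, taken 1 to 3 days after the flies eclosed. There were 2 libraries of the genotype labelled BEAF 32-AB KO and 3 control libraries labelled as wild type with the genotype nosGAL4;MKRS/TM6. BEAF-32 is a chromatin insulator protein found near many promoters, and how the knockout alters its gene is not given in the labels. nosGAL4 is a driver that expresses the yeast activator GAL4 in the germline, and MKRS and TM6 are balancers of chromosome 3, the chromosome of gnu, smg and tral. The knockout label names neither, so effects of the driver and balancers cannot be told apart from the effect of BEAF-32. Whether the libraries of a group were made from different flies is not stated in the labels, so a p-value measures only how far these libraries spread, which may be partly technical.

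A fly oocyte is loaded with mRNAs that are stored, repressed, and used only after the egg is activated during ovulation. The PNG kinase complex, made of the products of png, plu and gnu, is switched on at that point and changes the translation of many maternal mRNAs, among them those of cyclin B and Smaug. Smaug then drives the clearance of maternal transcripts, and Zelda opens the zygotic genome for transcription. The mRNAs of these regulators are made in the nurse cells of the ovary, so ovary RNA records how far the supply has been built up, not whether the proteins act.

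All 10 genes were lower in the knockout, and 0 were higher. Levels are in CPM, the count of a gene scaled to its library's total, and the fall of the group mean ranged from 2.39-fold for png to 10.8-fold for plu. Together the 10 genes took 0.180% and 0.190% of the counts in the knockout libraries, against 0.911%, 0.896% and 0.866% in the control libraries. A gene was called at an adjusted p under 0.05 in edgeR's quasi-likelihood test, with the Benjamini-Hochberg method applied over all 9241 tested genes. Every adjusted p below is from this test unless a permutation test, another method or a refit is named. A refit was adjusted over the genes it tested. By the edgeR rule 10 of 10 members were called lower, where 18.7% of all tested genes were called lower and 22.7% were called higher. Every knockout library lay below every control library for 10 of 10 members, which holds for 30.5% of all tested genes. The median log2 fold change of the members, knockout minus control, was -2.80, and that of all tested genes was 0.11.

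**Figure D1:**
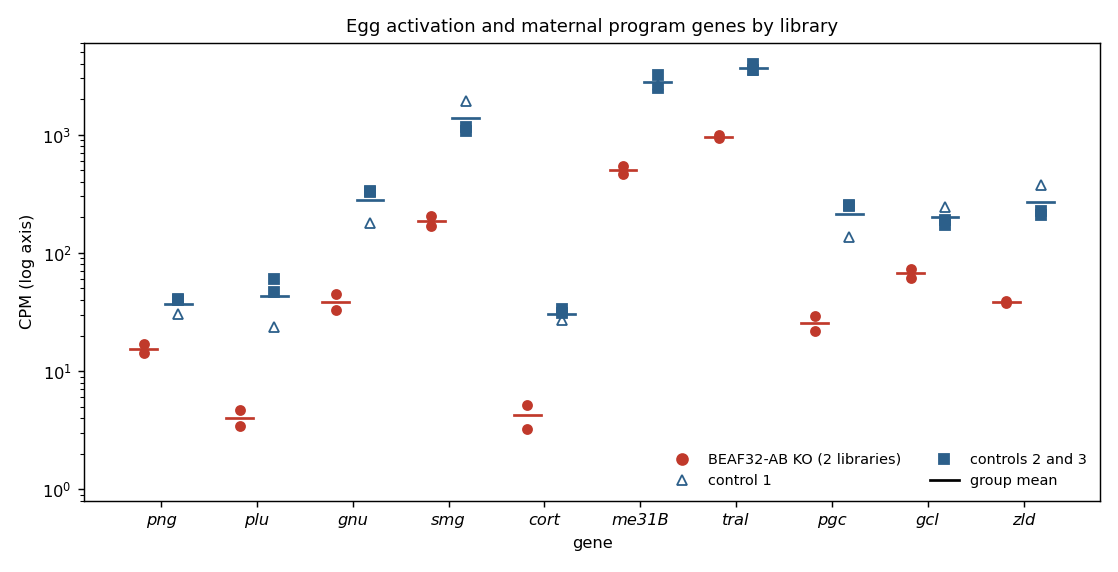
Expression of the 10 genes in CPM, the count scaled to the library's total (log axis), with knockout libraries as red circles left of the control libraries in blue, control 1 as an open triangle and group means as bars. In all 10 genes both knockout points sit below the 3 control points, from plu at 3.40 and 4.66 CPM in the knockout to tral at 995 and 935 CPM.

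Some facts of the whole data set bear on these values. Depth was 38820176 and 47805964 estimated counts in the knockout libraries, 41105107 in control 1 and only 8448850 and 10388643 in controls 2 and 3. BEAF-32 itself, with 50.2 and 52.8 CPM in the knockout, against 84.9, 136 and 144 CPM in the control, was lower (log2 fold change -1.19, SE 0.26, adjusted p = 0.0157), a call lost when knockout 1 or knockout 2 was left out (adjusted p = 0.107 and 0.126). Fits without a knockout library rest on 1 knockout library, and far fewer of all tested genes were called in them. A call lost there is therefore not particular to a gene or list. The tissue label was checked against markers. The summed level of 16 germline genes was 2340 to 2576 CPM in the knockout, against 2431 to 3558 CPM in the control, and 4 of the 16 were called lower and 3 higher. Chorion genes, made late in oogenesis by follicle cells, summed to 5.41 to 10.1 CPM in the knockout, against 9953 to 18999 CPM in the control, with 9 of 9 lower. The 10 vitelline membrane genes summed to 736 to 880 CPM in the knockout, against 9766 to 12562 CPM in the control, with 9 lower. Markers of early follicle cells and the stem cell niche summed to 826 to 856 CPM in the knockout, against 179 to 208 CPM in the control, with 9 of 10 tested higher. Muscle markers summed to 5188 to 5205 CPM in the knockout, against 482 to 839 CPM in the control, with 11 of 12 higher. Fat body markers summed to 116 to 189 CPM in the knockout, against 34.9 to 55.5 CPM in the control, with 3 of 6 tested higher. Hemocyte markers summed to 359 to 361 CPM in the knockout, against 108 to 129 CPM in the control, with 2 of 4 tested higher. Markers of spermatheca and oviduct summed to 55.2 to 57.6 CPM in the knockout, against 92.6 to 113 CPM in the control. Of 4 tested, 2 were lower and 1 higher. Testis markers summed to 0.335 to 1.18 CPM in the knockout, against 0 to 0.289 CPM in the control. Only 1 of them was tested and it was called higher, and Mst84Dc and dj were at 0 in all libraries. Apart from the germline sum, which overlapped between genotypes, these sums separated the knockout from the control libraries. The chorion, vitelline membrane, and spermatheca and oviduct sums were lower in the knockout, as the members were, and the other sums were higher. The part of these sums in the members' values was not tested. In whole ovaries, fewer cells of a type and less RNA per cell cannot be told apart.

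The 3 subunits of the PNG kinase complex fell by unequal amounts. png encodes the catalytic kinase subunit, and its gene has a single annotated exon (X, 1356488 to 1357601, minus strand, dm6). It had 14.2 and 16.9 CPM in the knockout libraries, against 30.5, 41.1 and 39.9 CPM in the control libraries. The groups did not overlap, and png kept the largest share of its control level among the members, 41.8% by group means (log2 fold change -1.22, SE 0.19, adjusted p = 0.00600). The call was lost when knockout 1 or knockout 2 was left out (adjusted p = 0.0671 and 0.0637).

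plu encodes an ankyrin-repeat protein without which PNG is inactive (2R, 20262958 to 20263684, minus strand, 3 exons). It had 3.40 and 4.66 CPM in the knockout, from 132 and 223 counts, against 23.5, 46.3 and 60.5 CPM in the control. Both knockout libraries were low, the second 1.37 times the first, and the control libraries spread widely, with control 1 the lowest. plu averaged 4.03 ± 0.89 CPM in the knockout (SD, n = 2) and 43.4 ± 18.7 CPM in the control (SD, n = 3), 9.29% of the control level (log2 fold change -3.38, SE 0.46, adjusted p = 0.0035). The exact Poisson 95% intervals, which cover counting error only, were 2.84 to 4.03 CPM and 4.07 to 5.32 CPM in the knockout libraries, which did not overlap each other and lay far below the control values.

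gnu encodes the activating subunit, whose binding to PNG and PLU is held back by phosphorylation until the egg is activated (3L, 14802380 to 14803360, minus strand, 2 exons). Its level was 32.8 and 44.5 CPM in the knockout, against 179, 333 and 329 CPM in the control. Control 1 again lay well below controls 2 and 3, and still far above the higher knockout library. The log2 fold change was -2.82 (SE 0.34, adjusted p = 0.00248).

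Levels of different genes were compared per kilobase of annotated exon. Within the complex the order of png and plu was reversed between genotypes. The plu to png ratio, in CPM per kilobase, was 0.434 and 0.50 in the knockout libraries, against 1.39, 2.04 and 2.75 in the control libraries, so plu was the less abundant of the pair in both knockout libraries and the more abundant in the 3 controls. The gnu to png ratio was 2.80 and 3.19 in the knockout, against 7.07, 9.78 and 9.96 in the control. The gnu to plu ratio was 6.45 and 6.37 in the knockout, against 5.09, 4.80 and 3.62 in the control. None of these ratios overlapped between groups. An exact two-sided permutation test gave p = 0.1 for each, the smallest value that 10 groupings of 5 libraries allow, and an adjusted p of 0.14 over the 7 ratios compared, so the design cannot place these differences below 0.05.

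**Figure D2:**
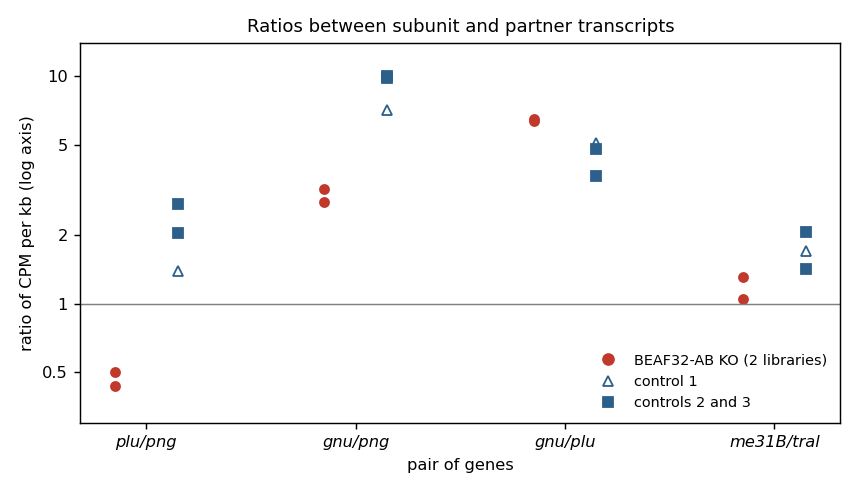
Ratios of transcript levels per kilobase of exon between partner genes (log axis), with knockout libraries as red circles left of the control libraries in blue and control 1 as an open triangle. The plu to png ratio lies below 1 in both knockout libraries and above 1 in the 3 control libraries, and the me31B to tral ratio lies above 1 in all 5.

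cort encodes a meiosis-specific activator of the anaphase-promoting complex, the ubiquitin ligase that destroys cyclins at the end of meiosis (2L, 6674682 to 6676635, minus strand, 2 annotated transcripts). It had 3.22 and 5.21 CPM in the knockout, from 125 and 249 counts, against 27.1, 33.5 and 31.2 CPM in the control. The 3 controls were close to each other, and the 2 knockout libraries differed by more than counting error, with Poisson 95% intervals of 2.68 to 3.84 CPM and 4.58 to 5.90 CPM. The log2 fold change was -2.82 (SE 0.26, adjusted p = 0.00114). A stretch of 99 exon bases of cort overlaps CG34310 on the opposite strand, which had 319 and 356 CPM in the knockout, against 929, 756 and 733 CPM in the control (log2 fold change -1.22, SE 0.19, adjusted p = 0.00582), a call lost when knockout 1 or knockout 2 was left out (adjusted p = 0.0751 and 0.0662). cup, also on the opposite strand, overlaps 99 exon bases of cort as well, and it is absent from the deposited table. The kit was directional, but the strand setting of the counting is not given in the sources used here. Reads where these genes overlap cort may therefore not be assigned to the right gene.

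The next 3 members act on stored mRNA. smg encodes Smaug, an RNA-binding protein that represses maternal mRNAs and recruits the deadenylation machinery to them (3L, 8990317 to 8997989, minus strand, 5 annotated transcripts). It had 170 and 206 CPM in the knockout, against 1942, 1154 and 1081 CPM in the control. Control 1 was the highest here, and the lowest control was still far above the higher knockout library. The log2 fold change was -2.86 (SE 0.34, adjusted p = 0.00245).

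me31B encodes a DEAD-box RNA helicase that coats and represses mRNAs in the oocyte (2L, 10239341 to 10242172, plus strand). It had 461 and 543 CPM in the knockout, against 2645, 3213 and 2486 CPM in the control. The spread within each group was small beside the gap between them, and me31B had the smallest adjusted p of the 10 members (log2 fold change -2.43, SE 0.19, adjusted p = 0.000781). tral encodes Trailer hitch, a partner of ME31B in the same particles (3L, 12515059 to 12520954, plus strand, 9 annotated transcripts). It had 995 and 935 CPM in the knockout, against 3501, 3502 and 3966 CPM in the control, a fall to 26.4% of the control level (log2 fold change -1.88, SE 0.18, adjusted p = 0.00129).

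Per kilobase, me31B and tral were the most abundant members in both genotypes. me31B reached 272 ± 31.3 CPM per kilobase in the knockout (SD, n = 2) and 1508 ± 207 in the control (SD, n = 3), and tral 231 ± 10.2 in the knockout and 877 ± 64.3 in the control. The me31B to tral ratio was 1.05 and 1.31 in the knockout, against 1.71, 2.07 and 1.42 in the control. The groups did not overlap, but another grouping of the libraries gave at least as large a difference (exact two-sided permutation p = 0.2, adjusted p = 0.2 over 7 ratios). In the knockout the levels of these 2 genes were separated by little more than their spread.

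In the control the order per kilobase went on with gnu (304 ± 95.1), smg (234 ± 80.1), pgc (176 ± 55.1), gcl (80.6 ± 14.9), plu (70.5 ± 30.4), png (33.3 ± 5.18), zld (25.5 ± 8.70) and cort (18.5 ± 1.95), with SD over 3 libraries. Neighbours in this order from gnu to pgc, the pair gcl and plu, and the run from png to cort differed by less than the larger SD of each pair. With the longest annotated transcript as the length, zld (33.7) came level with png (33.3). In the knockout the order was gnu (41.9 ± 8.94), smg (31.5 ± 4.35), gcl (26.9 ± 3.28), pgc (21.1 ± 4.23), png (13.9 ± 1.71), plu (6.55 ± 1.45), zld (3.62 ± 0.10) and cort (2.55 ± 0.85), with SD over 2 libraries. Each neighbour here differed by more than the larger SD of its pair, with only 2 libraries behind each SD. The pairs that changed places were pgc with gcl and plu with png. The pgc to gcl ratio per kilobase was 0.736 and 0.824 in the knockout, against 1.15, 3.02 and 2.74 in the control (exact two-sided permutation p = 0.2).

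pgc and gcl act in the pole cells, the germline founders of the embryo, and their mRNAs are kept in the germ plasm. pgc encodes a small protein that keeps pole cells transcriptionally silent by binding the elongation kinase P-TEFb (2R, 22330200 to 22332813, plus strand, 4 exons). It had 21.9 and 29.2 CPM in the knockout, against 136, 252 and 251 CPM in the control, and fell (log2 fold change -3.02, SE 0.34, adjusted p = 0.00197). Of its 1212 exon bases, 569 overlap exons of T3dh on the opposite strand, which had 8.53 and 8.58 CPM in the knockout, against 2.72, 6.39 and 3.37 CPM in the control and was not called (log2 fold change 1.11, SE 0.44, adjusted p = 0.0926), though it was called higher under 5 alternatives (1.12 to 1.67, adjusted p = 0.000947 to 0.0382). T3dh was below pgc in every library, and its estimate had the other sign. With the strand setting not given, the split of reads between the 2 genes is uncertain.

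gcl encodes a nuclear envelope protein that, as an adaptor of the Cul3 ubiquitin ligase, promotes pole cell formation (2R, 8724258 to 8728999, plus strand). It had 61.7 and 73.4 CPM in the knockout, against 244, 173 and 190 CPM in the control, with control 1 the highest. After png it had the smallest fall of the members (log2 fold change -1.55, SE 0.23, adjusted p = 0.00453), and the call was lost when knockout 1 or knockout 2 was left out (adjusted p = 0.0725 and 0.0534).

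zld encodes Zelda, the zinc-finger pioneer factor of zygotic genome activation (X, 19766465 to 19783548, minus strand, 5 annotated transcripts). It had 37.7 and 39.2 CPM in the knockout, against 376, 208 and 227 CPM in the control. The knockout libraries were nearly equal, and control 1 stood above the other controls. The log2 fold change was -2.78 (SE 0.34, adjusted p = 0.00261).

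**Figure D3:**
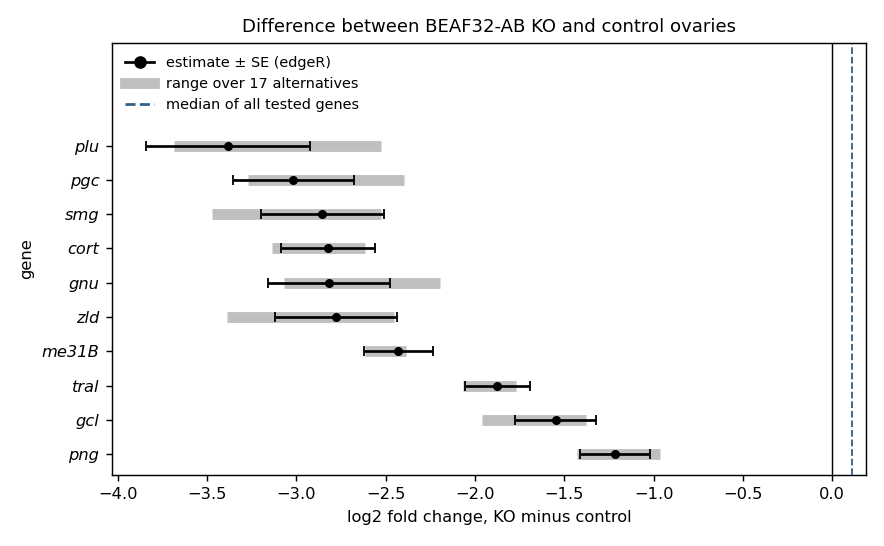
Log2 fold change of each gene, knockout minus control, with its SE (points and whiskers, edgeR), the range over 17 alternative analyses (grey bars) and the median of all tested genes (dashed line at 0.11). All 10 points and all grey bars lie below 0, from png at -1.22 to plu at -3.38.

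Within the knockout, library 2 had the higher CPM for 9 of the 10 members, with tral the exception at a ratio of 0.940 to library 1. The ratios of library 2 to library 1 ran up to 1.62 for cort. Over all tested genes with counts in both libraries the median ratio was 1.09, and 70.2% of genes were higher in library 2. Genes with rRNA in their symbol took 17.2% of the counts of knockout 1 and 11.7% of those of knockout 2, and 16.0% to 17.3% of those of the controls.

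Control 1 differed from controls 2 and 3 in a way that followed transcript length. The short transcripts plu (616 exon bases), gnu (923), png (1114) and pgc (1212) were at 0.439, 0.540, 0.755 and 0.541 of the mean of controls 2 and 3. cort (1655), me31B (1845) and tral (4170) were at 0.839, 0.928 and 0.938, and gcl (2509), smg (5963) and zld (10605) were at 1.35, 1.74 and 1.73. The order of lengths was not kept throughout: png lay above the longer pgc, tral below the shorter gcl, and smg marginally above the longer zld. Across the 10 members Spearman's rho between exon length and this ratio was 0.96, and across 7948 tested genes with counts in every library it was 0.56. These are descriptions over genes that share the same libraries. For all such genes the median log2 ratio of control 1 to controls 2 and 3 was -0.57 up to 1000 exon bases, -0.27 from there to 2000, 0.01 up to 4000, and 0.60 above that. For the knockout mean against controls 2 and 3 these medians were -0.26, -0.24, -0.09 and 0.56, with rho at 0.24. Against control 1 rho was -0.09. Relative to controls 2 and 3, the knockout libraries were thus also higher for the longest transcripts. The cause was not tested.

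**Figure D4:**
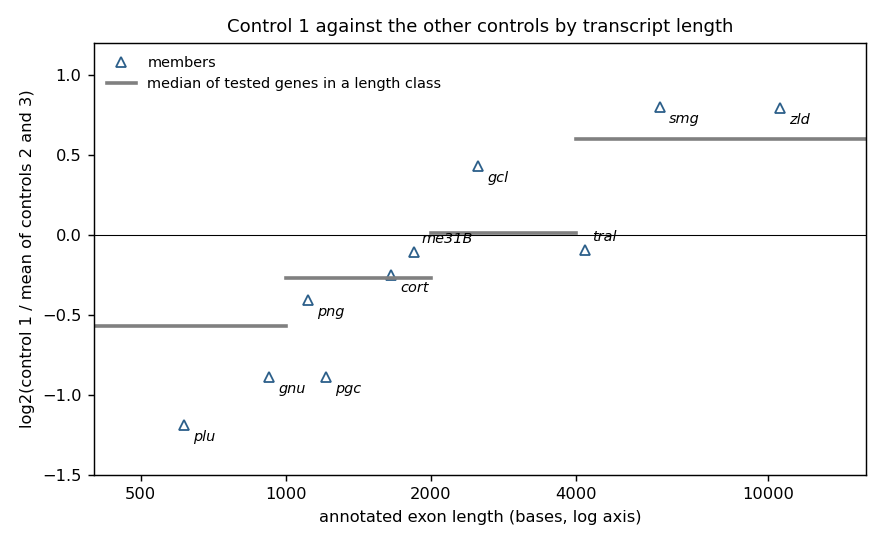
Log2 ratio of control 1 to the mean of controls 2 and 3 against annotated exon length (log axis) for the 10 genes (triangles), with the median of tested genes in 4 length classes as grey lines. The members climb from plu at -1.19 to smg and zld near 0.80, and the class medians climb from -0.57 to 0.60.

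Because of this difference, the size of the fall depends on which controls are used, while its direction does not. Control 1 shares its depth with the knockout libraries, so the comparison with it alone is the comparison within the deep libraries. The shallow libraries are all controls. Against control 1, the mean of the knockout libraries was 17.2% for plu, 21.6% for gnu, 18.8% for pgc, 9.67% for smg and 10.2% for zld. Against controls 2 and 3 it was 7.55% for plu, 11.7% for gnu, 10.2% for pgc, 16.8% for smg and 17.7% for zld. cort (15.5% and 13.0%), me31B (19.0% and 17.6%) and tral (27.6% and 25.8%) hardly depended on the choice, png kept 50.8% of control 1 and 38.3% of controls 2 and 3, and gcl kept 27.6% and 37.3%. Against control 1 alone the lowest member was smg and against controls 2 and 3 it was plu, so the order of the members by size of fall is not settled by these libraries. With control 1 as the only control, the estimates of all 10 members were below 0. Without control 1, 10 of 10 were called lower, beside 2731 of 8870 tested genes. Set against the summed germline markers instead of the library total, the members were also lower in both knockout libraries than in all 3 controls. How often this holds over all tested genes was not counted, so it is a description only. The germline sum was itself higher in control 1 (3558 CPM) than in controls 2 and 3 (2676 and 2431 CPM). This lowers the control 1 values on that scale. png then had 6.06 and 6.54 CPM per 1000 CPM of germline markers in the knockout, against 8.58, 15.4 and 16.4 in the control, and plu 1.45 and 1.81, against 6.59, 17.3 and 24.9 in the control.

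Of 9 tested genes that overlap a member or start within 1000 bases of its start, 2 were called lower, 3 were called higher and 4 were not called, beside 18.7% lower and 22.7% higher among all tested genes, and 9 genes are too few to set against those shares. The start of plu lies 295 bases from that of RpS18, a ribosomal protein gene on the opposite strand, and 801 bases from that of PCNA, the replication clamp. RpS18 rose, with 944 and 1303 CPM in the knockout, against 583, 589 and 642 CPM in the control (log2 fold change 0.93, SE 0.18, adjusted p = 0.0105), but it was not called when knockout 1, knockout 2 or control 2 was left out in turn (adjusted p = 0.0572, 0.106 and 0.0632) or when germline genes set the scaling (adjusted p = 0.131). PCNA had 149 and 181 CPM in the knockout, against 162, 165 and 156 CPM in the control and was not called (log2 fold change 0.08, SE 0.15, adjusted p = 0.713). CG5087, 195 bases from the start of smg, and sti, the citron kinase gene 244 bases from that of tral, were not called either (log2 fold changes -0.30, SE 0.24, adjusted p = 0.339, and 0.20, SE 0.39, adjusted p = 0.701). CG5087 was called lower when depth class was a term (-0.66, adjusted p = 0.00798) and with the deep libraries only (-0.77, adjusted p = 0.00136), and sti was called higher without control 1 (0.63, adjusted p = 0.0243) and lower with the deep libraries only (-0.51, adjusted p = 0.00419). Nse1, whose start lies 990 bases from that of cort, fell to 4.89 and 4.92 CPM in the knockout, against 12.9, 24.3 and 23.8 CPM in the control (log2 fold change -1.99, SE 0.35, adjusted p = 0.00779), a call lost when knockout 1 or knockout 2 was left out (adjusted p = 0.0675 and 0.0805). CG14767, 419 bases from the start of gcl, was called higher (log2 fold change 0.88, SE 0.17, adjusted p = 0.0109), but not when knockout 1, knockout 2, control 2 or control 3 was left out in turn (adjusted p = 0.116, 0.0998, 0.0664 and 0.0582) or with scaling over germline genes (adjusted p = 0.0633). CG34207, 480 bases from the start of pgc, had 3.63 and 5.84 CPM in the knockout, against 0.633, 0 and 0 CPM in the control (adjusted p = 0.0427), a call lost when knockout 1, knockout 2, control 2 or control 3 was left out in turn (adjusted p = 0.192, 0.230, 0.0725 and 0.0669) or with no filter on low counts (adjusted p = 0.0544). CG30356, which overlaps the end of gcl by 36 bases on the opposite strand, was at 0.126 CPM or less and was not tested.

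Other genes of meiotic completion and egg activation were mostly lower. Of 26 on the list, all tested, 17 (65.4%) were called lower, beside 18.7% of all tested genes. Another 3 were called higher, beside 22.7% of all tested genes, and the median log2 fold change was -1.28. CycB, the mitotic cyclin whose translation PNG promotes, had 303 and 393 CPM in the knockout, against 2879, 2869 and 2998 CPM in the control (log2 fold change -3.03, SE 0.19, adjusted p = 0.00051). The Cdc25 phosphatase twe (log2 fold change -3.07), the nuclear lamina protein gene fs(1)Ya, needed for the first division of the embryo (-3.08), and Rca1, an inhibitor of the anaphase-promoting complex (-2.70), fell as well, each with an adjusted p of 0.000553. The calcineurin subunit CanB2 had 90.4 and 104 CPM in the knockout, against 120, 196 and 208 CPM in the control, and was not called (log2 fold change -0.80, adjusted p = 0.0557). It was called lower with DESeq2 (adjusted p = 0.0178), column totals (adjusted p = 0.0499), no filter on low counts (adjusted p = 0.0419), without control 1 (-1.01, adjusted p = 4.95e-05) and with the deep libraries only (-0.41, adjusted p = 0.015). shtd, a subunit of the anaphase-promoting complex, had 89.1 and 113 CPM in the knockout, against 134, 88.5 and 74.4 CPM in the control and was not called (log2 fold change 0.06, adjusted p = 0.880), but passed as higher when control 1 was left out (0.36, adjusted p = 0.0341) and lower with the deep libraries only (-0.51, adjusted p = 0.00807). Outside the rule for named genes, grau, the zinc-finger activator of cort transcription, was looked up after the values were seen: it had 25.9 and 28.9 CPM in the knockout, against 23.9, 32.5 and 29.3 CPM in the control (log2 fold change -0.01, SE 0.18, adjusted p = 0.965). Without knockout 1, 10 of the list were lower and 0 higher, and without knockout 2, 9 were lower and 1 higher.

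Genes of mRNA repression and clearance were mostly not called. Of 34 tested, 10 (29.4%) were called lower, 2 higher and 22 not called, with a median log2 fold change of -0.09. Among all tested genes, 18.7% were called lower and 22.7% higher. Those that fell most clearly were nos, a translational repressor (log2 fold change -3.43, SE 0.23, adjusted p = 0.000563), exu, needed to localize bcd mRNA in the oocyte (-3.54, SE 0.27, adjusted p = 0.000704), muskelin, a subunit of the ubiquitin ligase that removes ME31B and TRAL in the embryo (-3.05, SE 0.22, adjusted p = 0.000629), and the decapping factor Edc3 (-1.66, SE 0.15, adjusted p = 0.00113). The control carries a nos-driven transgene that may share sequence with nos, so the value of nos is uncertain. The abundant poly(A)-binding protein gene pAbp had 2707 and 3840 CPM in the knockout, against 2212, 3178 and 3229 CPM in the control and was not called (adjusted p = 0.467), except as higher when depth class was a term (0.57, adjusted p = 0.0399). rin, an RNA-binding protein gene, was not called (log2 fold change -0.48, SE 0.17, adjusted p = 0.0638), but was called lower with DESeq2 (adjusted p = 0.00464), limma-voom (adjusted p = 0.0405) and without control 1 (adjusted p = 0.00422). Leaving out either knockout library gave 6 lower and 1 higher. Without control 1, 12 were higher, beside 3352 of 8870 tested genes. Without control 2 or control 3, 1 was, beside 1507 of 9166 and 1519 of 9178 tested genes.

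Genes of the germ plasm and pole cells showed no common direction. Of 18 tested, 4 were lower and 4 higher, with a median log2 fold change of -0.11. A share of 22.2% lower is near the 18.7% of all tested genes, of which 22.7% were higher. The lipid phosphatase gene wun2 (log2 fold change -1.53, SE 0.24, adjusted p = 0.0058) and the terminal receptor gene tor (-1.77, SE 0.37, adjusted p = 0.0139) fell. Cdk9, the kinase subunit of P-TEFb on which Pgc acts, had 31.7 and 37.0 CPM in the knockout, against 17.4, 21.2 and 15.3 CPM in the control (log2 fold change 0.98, SE 0.19, adjusted p = 0.0112), and vls, a germ plasm methylosome subunit gene, also rose (0.79, SE 0.17, adjusted p = 0.0142). The posterior determinant osk and the germline transcription factor gene ovo were not called (log2 fold changes -0.61 and -0.54, adjusted p = 0.157 and 0.0761). Both were called lower when depth class was a term (-1.09 and -0.70, adjusted p = 0.000954 and 0.00932) and with the deep libraries only (-1.20 and -0.81, adjusted p = 0.000363 and 0.00424), and ovo also with DESeq2 (adjusted p = 0.0233) and without control 1 (adjusted p = 0.0198). These 8 calls were lost when either knockout library was left out, which leaves 1 in the group. Calls over all tested genes also fell sharply then, so the loss is not particular to this list. Without control 1 there were 8 higher, beside 3352 of 8870 tested genes. Without control 2 there was 1, beside 1507 of 9166, and without control 3 there were 2, beside 1519 of 9178. With scaling over germline genes Cdk9 (0.80, adjusted p = 0.109) and vls (0.61, adjusted p = 0.196) were not called.

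Among genes of zygotic genome activation and the midblastula transition, 10 of 18 tested (55.6%) were lower and 3 higher, with a median log2 fold change of -0.86. The shares of all tested genes were 18.7% lower and 22.7% higher. BigH1, the embryonic linker histone, had 23.0 and 31.3 CPM in the knockout, against 318, 622 and 579 CPM in the control (log2 fold change -4.18, SE 0.38, adjusted p = 0.00104). The boundary factor genes insv (-4.05, SE 0.21, adjusted p = 0.000362) and Elba2 (-3.58, SE 0.32, adjusted p = 0.000993) and the checkpoint kinase gene grp (-1.96, SE 0.17, adjusted p = 0.000958) fell. The coactivator genes fs(1)h and nej were not called (adjusted p = 0.323 and 0.701), and nej had 425 and 372 CPM in the knockout, against 644, 162 and 158 CPM in the control, so control 1 lay above the knockout and the other controls below it. nej was called higher without control 1 (log2 fold change 1.37, adjusted p = 2.46e-05) and lower with the deep libraries only (-0.79, adjusted p = 0.0054) or when depth class was a term (-0.67, adjusted p = 0.00809), and fs(1)h was called higher without control 1 (0.62, adjusted p = 0.00192). Leaving out either knockout library gave 6 lower and 0 higher. Without control 1, 7 were higher, beside 3352 of 8870 tested genes. Without control 2, 1 was, beside 1507 of 9166, and without control 3, 0 were, beside 1519 of 9178.

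**Figure D5:**
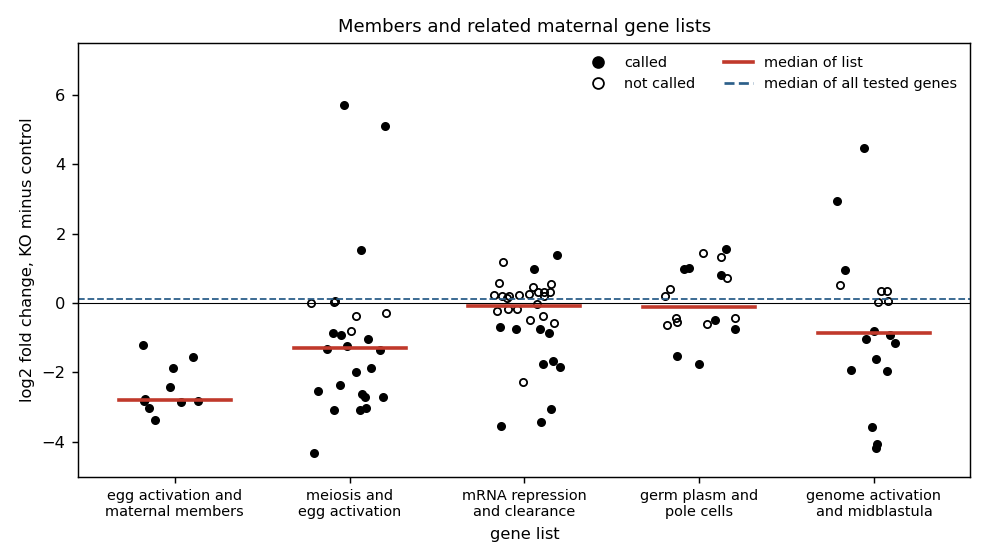
Log2 fold change, knockout minus control, of the 10 members and of the tested genes on 4 related lists, with called genes filled, uncalled genes open, list medians as red bars and the median of all tested genes as a dashed line. The members lie at -1.22 or lower, while the lists spread to both sides of 0 with medians of -1.28, -0.09, -0.11 and -0.86.

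Likeness to the PNG complex was measured over the 5 libraries as the Euclidean distance between centred log2(CPM + 0.5) profiles, taking the mean profile of png, plu and gnu. The nearest 5 tested genes were APC7, a subunit gene of the anaphase-promoting complex (distance 0.119), Gs1, a glutamine synthetase gene (0.136), CG8152 (0.178), CG32795 (0.215) and CG9609 (0.228). APC7 had 24.6 and 32.2 CPM in the knockout, against 99.5, 161 and 191 CPM in the control. Its control 1 lay below the other controls, as for png, plu and gnu, whose mean profile it was picked to match. With 5 libraries and 9241 genes, such closeness is a description only.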

How the data were processed

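Total RNA was extracted with Trizol and made into libraries with a directional kit, per the labels' protocols. The submitters' processing notes name FastQC 0.11.8, Trim Galore 0.6.6, STAR 2.7.5b, Salmon 1.2.1 and dm6. Order, settings, annotation and strand setting are not given in the sources used here. The authors deposited estimated counts per gene, not scaled between libraries. Here they were rounded, filtered with filterByExpr (9241 of 14094 genes kept) and scaled by TMM (factors 0.941 to 1.03). The genotypes were compared, knockout minus control, over all 5 libraries and without covariates, by glmQLFit (robust) and glmQLFTest of edgeR 4.0.16 under R 4.3.3. SE is the absolute log2 fold change over the root of F. CPM uses column totals. At the depths found, 3 counts equal 0.0628 CPM (knockout 2, deepest) to 0.355 CPM (control 2, shallowest).

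Positions and exon lengths come from Ensembl's BDGP6 annotation, in dm6 coordinates, which holds 14048 of the 14094 gene identifiers (99.7%). Of listed genes, 9 were matched by another spelling and cup, Houki, Souji, Katazuke and Elba1 were not analysed here. Members and lists were chosen with earlier results of these data known. Named genes are the members, BEAF-32, for each of 4 lists up to 4 called genes with the smallest p and up to 2 uncalled with the highest CPM, genes that overlap a member or start within 1000 bases of its start, and the 5 nearest profiles. Exceptions are stated. No libraries were duplicates: the lowest chi-square per degree of freedom, between controls 2 and 3, was 12.5. The fit was tested on simulated counts and missed most of the smaller changes put into them, so a gene not called may still differ. Alternatives were DESeq2 1.42.0, limma-voom 3.58.1, other scalings and filters, thinning, depth class, a replicate block and each library left out.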

Additional observations from a re-analysis of the deposited data

How the results depend on the processing

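All 10 members stayed lower under all 17 alternatives, and 166 of 170 member results kept their call. The other 4 are the lost calls of png and gcl without knockout 1 or knockout 2. The count of members lower was 8 to 10 with a library left out, and 0 were higher. All tested genes called numbered 878 (without knockout 1) to 6083 (without control 1), with 403 to 2731 lower and 475 to 3352 higher, and with the deep libraries only, an alternative chosen after seeing the data, 5949 were called, 3014 of them lower. With a library left out, the egg activation list had 9 to 18 lower and 0 to 4 higher, the repression and clearance list 6 to 13 and 1 to 12, the germ plasm list 0 to 6 and 0 to 8, and the genome activation list 6 to 10 and 0 to 7. After thinning, 1 egg activation gene was higher. With depth class as a term 4 repression and clearance genes were higher and 8 germ plasm genes lower, and 10 germ plasm genes were lower with the deep libraries only. With scaling over germline genes, which moved the median of all genes to -0.06, 2 germ plasm genes were lower and 1 higher. Among the other named genes, 26 results of 663 gained a call in the same direction and 33 lost one. shtd, sti and nej were called in opposite directions: higher without control 1 (0.36, 0.63 and 1.37) and lower with the deep libraries only, where control 1 is the sole control (-0.51, -0.51 and -0.79), and nej also lower with depth class as a term (-0.67). The cause was not tested. The replicate numbers were not taken to pair libraries, since deviations of same-numbered libraries correlated at 0.04 for both pairs. The replicate block gave 10 members lower, 3261 genes called and 2 germ plasm genes lower. Using the longest transcript as length moved 2 of 20 levels per kilobase by more than their SD, and totals without rRNA genes moved 11. The planned search for a BEAF-32 motif in promoters was not run. Depth limits plu and cort most, at 132 and 125 counts in knockout 1.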
